A study of Mus musculus with 10 samples.

Results

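Lung mesenchymal cells that carried the Axin2 lineage label without the Pdgfra label were compared with cells that carried neither label. The comparison uses 4 of the 10 libraries of the study, 2 of Axin2 cells and 2 of Negative cells, and covers 14177 of 14854 genes: those with a log2 SIGNAL of 6 or more in at least 2 of the 10 libraries. SIGNAL is the name of the deposited value, a log2 expression level. The difference for a gene is the mean log2 SIGNAL of the Axin2 libraries minus that of the Negative libraries.

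Both groups were sorted by FACS from adult mice of the genotype Axin2CreERT2:tdT:PdgfraEGFP, so the Negative cells carried the same 3 alleles as the Axin2 cells. The lineage label tdt marks the Axin2 group, and the label neg marks the Negative group. The Axin2:Pdgfra and Pdgfra groups came from the same line, and the Wnt2 group from Wnt2CreERT2:R26REFYP mice. CreERT2 is a recombinase that acts when tamoxifen is given, so the tdT label stays on cells that expressed Axin2 at that time and on their progeny, whether or not they still express it. The sources used here do not give the time since labelling, the efficiency of labelling or any other surface marker of the sort. An unlabelled cell is therefore defined only by the absence of both reporters.

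Axin2 is a feedback inhibitor of canonical Wnt signalling and is switched on by that pathway, so the Axin2 driver reports cells that received a Wnt signal. Mesenchyme of the adult lung holds fibroblasts, which make collagen and elastic fibres, and mural cells, the pericytes and smooth muscle cells that wrap vessels and airways and contract through smooth muscle actin. Across the alveolar wall lie thin alveolar type 1 (AT1) epithelial cells, which exchange gas over a basement membrane shared with the capillaries, and surfactant-making alveolar type 2 (AT2) cells.

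Libraries are named by group and replicate number: Axin2 1 and 2, and Negative 0 and 2. Spearman correlation over all genes was 0.86 between the Axin2 libraries and 0.769 between the Negative libraries. Negative 0 was closer to both Axin2 libraries (0.818 and 0.795) than to Negative 2, which stood apart from them as well (0.741 and 0.718). Negative 2 had Y-linked transcripts (Ddx3y at 10.7, Eif2s3y at 9.73) and little Xist, the RNA that coats the inactive X chromosome, at 8.57. In the Axin2 libraries and Negative 0 Xist was at 16.7 to 17.7, so Negative 2 differed from them in the sex its transcripts showed. Negative 2 also had another second barcode index than these 3 libraries and the most genes at the lowest value of a library, 18.4% against 8.09% to 10.2%. The tables hold no counts, so the sequencing depth is unknown. Because SIGNAL is not stated to be per length, no result rests on the level of one gene against another.

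Genes lower in Axin2 than in Negative cells included AT1, red cell and some junction genes, and genes higher in Axin2 included collagens, other matrix genes and the complement components C3 and C4b. Smooth muscle and pericyte lists had larger median differences (2.45 and 1.48) than the collagen list (0.85), but 0 of their genes were called. Of the 14177 genes, 85 (0.6%) passed an adjusted p of 0.05 (limma, Benjamini-Hochberg adjustment over all genes), 34 higher (0.24%) and 51 lower (0.36%) in Axin2. The 34 were higher by 0.91 to 7.06 log2 units (median 2.30). The 51 differed by -10.26 to -1.27 (median -3.21). In all 85 the Axin2 and Negative libraries did not overlap, as was the case for 21.9% of all genes in the higher and 20.6% in the lower direction. Of the 85 genes, 3 are on the X chromosome and 0 on the Y. For 47 of the 51 lower genes Negative was the highest of the 5 groups, and for 30 of the 34 higher genes it was the lowest. Axin2 was the highest group for 9 of the 34 and the lowest for 23 of the 51. These genes were selected by the same Axin2 and Negative values, which favours an extreme mean in these groups. The counts by group are therefore a description only.

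The number of calls depended on single libraries. It was 33 without Axin2 1, 0 without Axin2 2 (limma; 1294 at unadjusted p under 0.05), 585 without Negative 0, 14 without Negative 2, 36 without Pdgfra 1 or without Pdgfra 2, 49 without Wnt2 1 and 51 without Wnt2 2. Of the 85 genes themselves, 22, 0, 76, 8, 35, 35, 48 and 49 passed in these fits, in that order, and 63 and 64 without Axin2:Pdgfra 1 or 2. With plain eBayes, limma's moderation without trend and robust settings, 0 passed (1692 at unadjusted p under 0.05). In the fit of the 4 libraries alone, 2 of the 34 higher genes (Flna and Map1b) and 31 of the 51 lower genes passed. Called genes described below that are in no gene list and not among the 15 largest differences of their direction were chosen after their values were seen. In bulk samples such as these, fewer cells of a type and less RNA per cell cannot be told apart. The labels do not tell whether replicates were separate mice. The p-values speak only for the spread between these libraries, part of which may be technical.

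**Figure D1:**
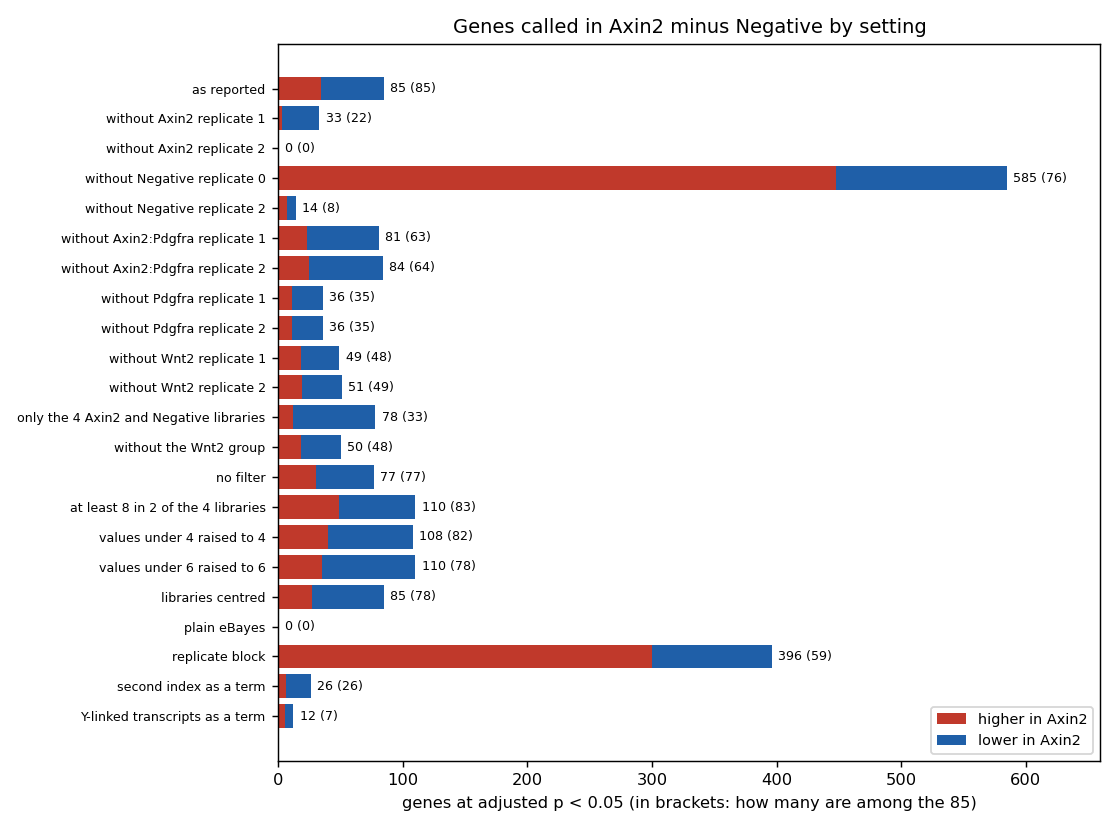
Number of genes past an adjusted p of 0.05 in Axin2 against Negative cells (horizontal axis) for the fit as reported and for each alternative (vertical axis), split into genes higher and lower in Axin2, with the number shared with the 85 in brackets. The count ran from 0 without Axin2 replicate 2 or with plain eBayes to 585 without Negative replicate 0.

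AT1 genes made up the largest named group among the lower genes. Of 15 AT1 genes tested 10 were lower and 0 higher in Axin2, and the median difference was -3.09, against 0.08 over all genes. All 15 were lower without overlap between the groups, as were 20.6% of all genes. At an unadjusted p under 0.05 all 15 were lower, as were 6.6% of all genes. Col4a3, Col4a4 and Sema3e had been placed in this list with their values known. Without them 8 of 12 were lower, with a median of -2.99. Those 12 were also listed with earlier results of these data known, so this count is a description too. The mean level of the list was 12.05 and 11.27 in Axin2 1 and 2, against 14.87 and 14.59 in Negative 0 and 2. In the other 3 groups it ran from 10.01 to 12.43, so both Negative libraries were above each of the other 8 libraries. The tissue label names lung mesenchyme, and AT1 genes were measured in all 10 libraries.

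Ager, a receptor for glycated proteins that AT1 cells carry in large amount, was at 12.97 and 12.61 in Axin2, against 15.77 and 15.32 in Negative. It was lower by -2.75 ± 0.47 (log2 ± SE; limma, adjusted p = 0.021). Clic5, a chloride intracellular channel protein tied to the actin cortex, was at 13.42 and 12.80 in Axin2, against 16.09 and 16.22 in Negative (difference -3.04 ± 0.40; limma, adjusted p = 0.00863). For both genes the Negative libraries lay close together and far from the nearer Axin2 library. Hopx, a homeodomain cofactor of AT1 cells, was at 12.35 and 10.64 in Axin2, against 14.27 and 14.60 in Negative (-2.94 ± 0.55; adjusted p = 0.0345). The kinase anchor Akap5 was at 12.94 and 11.62 in Axin2, against 15.48 and 15.60 in Negative (-3.26 ± 0.56; 0.021). In Hopx and Akap5 the Axin2 libraries themselves were further apart, with Axin2 2 the lower. Emp2, a tetraspan membrane protein, differed least in this group, at 14.65 and 14.71 in Axin2, against 16.17 in each Negative library (-1.5 ± 0.23; 0.0135). Cav1, the scaffold of caveolae that endothelium also makes, was at 14.14 and 13.15 in Axin2, against 15.47 in each Negative library (-1.82 ± 0.38; 0.0492).

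The other 5 AT1 genes, Gprc5a, Rtkn2, Pdpn, Col4a4 and the water channel Aqp5, differed by -4.19 to -2.83 and did not pass the adjusted threshold. Without Axin2 1, 6 of the 15 genes were called, without Axin2 2 0 (lowest adjusted p 0.158), without Negative 0 8 and without Negative 2 only Vegfa. The differences themselves were alike against either Negative library, with a median of -3.13 against Negative 0 and -3.07 against Negative 2. In a fit of the 4 libraries alone 14 of the 15 were called, where 66 of all 14177 genes were lower.

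Some genes with roles at cell junctions, in the cytoskeleton or in recycling endosomes were also lower. The 8 below were put together from the lower genes after their values were seen, so their number is a description, and Rab13, which governs junction traffic, was called higher (described below). Cldn18, the tight junction claudin of alveolar epithelium and an AT1 list member, was at 12.59 and 12.23 in Axin2, against 15.53 and 15.48 in Negative (-3.10 ± 0.43; limma, adjusted p = 0.00863). F11r, the junctional adhesion molecule A, was at 9.21 and 10.23 in Axin2, against 13.17 and 12.48 in Negative (-3.11 ± 0.62; 0.0437). Magi3, a tight junction scaffold, was at 9.5 and 9.54 in Axin2, against 13.16 and 13.03 in Negative (-3.57 ± 0.64; 0.026). None of these libraries overlapped between the groups. Tjp1 (ZO-1) and Jup (plakoglobin), which link junctions to the cytoskeleton in many cell types, differed less, by -1.39 ± 0.29 and -1.40 ± 0.29 (0.0492 each). Lmo7, an adherens junction protein, differed by -3.77 ± 0.69 (0.0271), the non-muscle myosin heavy chain Myh14 by -3.94 ± 0.80 (0.0452) and the recycling endosome protein Rab11fip1 by -3.70 ± 0.71 (0.0396). Of these 8 genes, 2 were called without Axin2 1 (Cldn18 and Rab11fip1), 0 without Axin2 2 (lowest adjusted p 0.158), 7 without Negative 0 (all but F11r) and 0 without Negative 2 (lowest adjusted p 0.0586).

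Other epithelial lists moved less evenly. Of 18 airway and general epithelial genes 2 were called, both lower, and the median was -3.31. In that direction 14 did not overlap, against 20.6% of all genes. The 2 called, the lipid-binding protein Sec14l3 (-3.67 ± 0.59; limma, adjusted p = 0.0182) and the cytochrome P450 Cyp2b10 (-3.41 ± 0.69; 0.0452), had been listed with their values known, so that 0 of the remaining 16 were called (median -2.85). The other 16 were also listed with earlier results of these data known. Sec14l3 was at 12.48 and 10.84 in Axin2, against 15.38 and 15.29 in Negative. Cyp2b10 was at 12.62 and 10.85 in Axin2, against 15.58 and 14.71 in Negative. Scgb1a1, the secretoglobin of club cells, was at 15.06 and 14.53 in Axin2, against 15.45 and 15.68 in Negative. Its difference of -0.77 ± 0.37 did not pass. Sec14l3 was called without Axin2 1 or Negative 0 and lost without Axin2 2 or Negative 2, and Cyp2b10 was lost in each of these 4 fits.

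Of 14 AT2 genes 0 were called (limma, lowest adjusted p 0.0879), and the median was -1.61. Without overlap 11 were lower in Axin2, as were 20.6% of all genes. Sftpc, the surfactant protein that defines AT2 cells, was at 14.25 and 13.59 in Axin2, against 14.55 and 15.43 in Negative (-1.07 ± 0.36; adjusted p = 0.181). Negative 0 lay nearer to Axin2 1 than to Negative 2. Sftpa1 (-1.99 ± 0.50; 0.0879) and the phosphate carrier Slc34a2 (-2.04 ± 0.54) showed larger differences. Without Negative 0 these 3 genes were called lower. The AT2 list had mean levels of 11.34 and 10.37 in Axin2, against 11.92 and 12.83 in Negative, a narrower gap than that of the AT1 list.

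**Figure D2:**
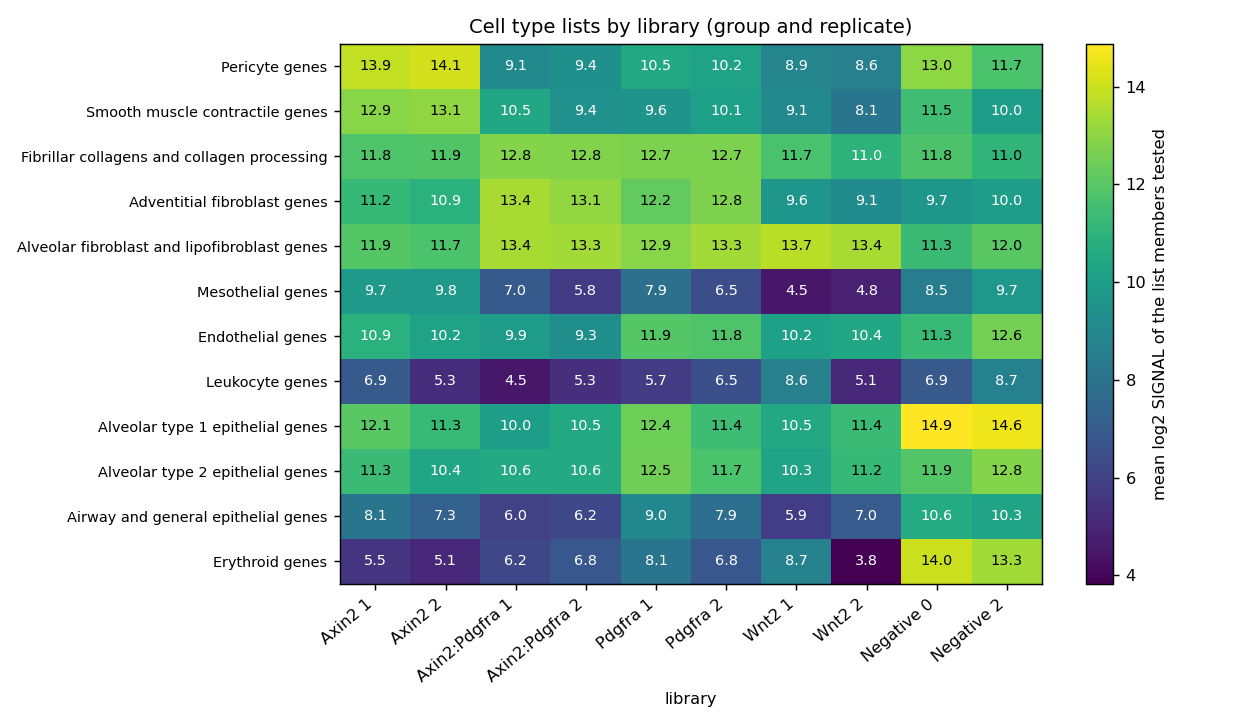
Mean log2 SIGNAL of the tested members of 12 cell type lists (vertical axis) in each of the 10 libraries (horizontal axis, group and replicate), shown by colour and printed in each cell. The AT1 and erythroid lists stood highest in the Negative libraries (14.87 and 14.59 for AT1, 13.99 and 13.32 for erythroid genes), and the pericyte and smooth muscle lists in the Axin2 libraries (13.86 and 14.1, and 12.89 and 13.05).

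Basement membrane chains split by chain. Lama3, the laminin chain of epithelial basement membrane, was at 11.88 and 11.41 in Axin2, against 15.22 and 14.80 in Negative (-3.37 ± 0.50; limma, adjusted p = 0.0135). Col4a3, the collagen IV chain of alveolar and glomerular basement membrane, was at 12.35 and 11.13 in Axin2, against 15.30 and 15.56 in Negative (-3.69 ± 0.51; 0.00863). Lama4, the laminin chain of vessels and muscle, went the other way, at 14.36 and 14.45 in Axin2, against 12.96 and 12.84 in Negative (1.5 ± 0.25; 0.021). The groups did not overlap for any of these chains. Of 19 genes in the list 1 was higher and 2 were lower, and the median was -0.28. In these directions 7 and 8 did not overlap, against 21.9% and 20.6% of all genes. The calls of Col4a3 and Lama3 held without Axin2 1 and that of Lama4 did not. All 3 held without Negative 0 and ended without Axin2 2 (lowest adjusted p in the list 0.158) or Negative 2 (0.0586).

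Red cell genes were among those with the largest differences. These genes are made by erythroid precursors under GATA1, a factor that binds GATA motifs, and mature red cells still hold globin RNA. Alas2, the erythroid enzyme that starts haem synthesis, was at 2.65 and 1.75 in Axin2, against 12.89 and 12.02 in Negative. Its difference was -10.26 ± 1.65 (limma, adjusted p = 0.0182), and 1 Axin2 library was at the lowest value, so the size depends partly on that value. The alpha globin gene Hba-a1 was at 6.46 and 6.43 in Axin2, against 14.61 and 14.50 in Negative (-8.11 ± 1.29; 0.0176). The beta globin gene Hbb-bs was at 7.59 and 7.69 in Axin2, against 15 and 14.62 in Negative (-7.17 ± 1.14; 0.0176). Of the erythroid genes tested, all 5 were lower in Axin2 without overlap (3 called, median -8.11), as were 20.6% of all genes. Hbb-bt was at 6.22 and 4.83 in Axin2, against 13.96 and 13.03 in Negative (limma, adjusted p = 0.0712). The globin genes have near-identical copies (Hba-a1 with Hba-a2, Hbb-bs with Hbb-bt), and how reads were split between copies is uncertain. The list averaged 5.53 and 5.07 in Axin2, 13.99 and 13.32 in Negative, and 3.83 to 8.73 in the other 6 libraries, so the erythroid RNA stood out in the Negative libraries rather than being low in Axin2 alone. The 3 calls held without Negative 0 and ended without Axin2 1 (lowest adjusted p 0.0519), Axin2 2 (0.158) or Negative 2 (0.0767). In the fit of the 4 libraries alone all 5 were called, where 66 of all 14177 genes were lower. The source of this RNA was not tested.

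The promoters of these 3 erythroid genes are shown because these genes differed together and include the largest difference of all genes called. Each run is the 250 bases before the RefSeq start in GRCm38.p6, on the strand of the gene, and capitals mark the GATA core GATAA or its reverse complement TTATC. They lie at chrX:150547167-150547416 (+), chr11:32283422-32283671 (+) and chr7:103827929-103828178 (−).
Alas2: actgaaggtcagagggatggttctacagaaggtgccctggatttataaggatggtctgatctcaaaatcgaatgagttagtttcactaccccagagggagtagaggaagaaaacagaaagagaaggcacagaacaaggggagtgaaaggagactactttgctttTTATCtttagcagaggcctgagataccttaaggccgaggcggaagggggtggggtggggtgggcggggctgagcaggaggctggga
Hba-a1: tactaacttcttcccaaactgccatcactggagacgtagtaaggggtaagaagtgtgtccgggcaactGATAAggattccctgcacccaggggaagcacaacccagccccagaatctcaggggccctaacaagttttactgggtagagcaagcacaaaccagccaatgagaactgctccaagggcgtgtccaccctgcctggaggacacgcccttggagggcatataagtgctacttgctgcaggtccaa
Hbb-bs: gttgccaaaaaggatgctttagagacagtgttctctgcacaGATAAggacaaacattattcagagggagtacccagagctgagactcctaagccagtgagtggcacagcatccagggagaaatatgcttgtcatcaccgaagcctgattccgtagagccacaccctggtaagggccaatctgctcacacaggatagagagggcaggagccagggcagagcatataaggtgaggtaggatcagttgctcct
The core begins 86 bases before the start in Alas2, 182 in Hba-a1 and 209 in Hbb-bs. It was searched on both strands, and it was chosen after the values were seen. Of 27025 promoters of this length 23.0% hold it, as do 8 of the 39 lower genes (20.5%) and 2 of the 20 higher genes that had a promoter in the table. A match of 5 letters is a description of the sequence and not a binding site.

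Some secreted ligands and receptors were lower, although their lists did not shift as a whole. Of 15 growth factors for epithelium and endothelium 1 was called (Vegfa), and the median was 0.32. Without overlap 6 were higher and 2 lower, against 21.9% and 20.6% of all genes. Vegfa, the main growth factor of endothelium, which AT1 cells also make, was at 13.20 and 12.30 in Axin2, against 15.73 and 15.37 in Negative (-2.80 ± 0.34; limma, adjusted p = 0.00698). Pdgfb, the ligand that recruits pericytes through Pdgfrb and comes mostly from endothelium, was at 6.68 and 6.22 in Axin2, against 11.47 and 11.74 in Negative (-5.16 ± 1.03; 0.0437). Fgf1, a fibroblast growth factor, was at 12.13 and 10.43 in Axin2, against 13.98 and 14.25 in Negative (-2.83 ± 0.53; 0.0313). No Axin2 library reached the Negative range for any of the 3. The guidance ligand Sema3e differed by -4.07 ± 0.80 (0.0432) and the secreted neurotrophic factor Ndnf by -3.48 ± 0.72 (0.0469). Icam1, the leukocyte adhesion receptor that AT1 cells also carry, was at 11.53 and 11.61 in Axin2, against 14.57 and 14.19 in Negative (-2.81 ± 0.40; 0.00863). Of these 6 genes, put together after their values were seen, Vegfa, Icam1 and Fgf1 were called without Axin2 1, 0 without Axin2 2 (lowest adjusted p 0.158), Vegfa, Icam1, Fgf1 and Pdgfb without Negative 0, and Vegfa and Icam1 without Negative 2.

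Vegfa, Icam1, Ndst1, Neat1 and Trp53bp2 held in 9 of the 10 fits that left out 1 library, more than any other gene, and were lost only without Axin2 2 (adjusted p = 0.158 for each). Ndst1, which sulfates heparan sulfate chains, was at 13.77 and 13.24 in Axin2, against 16.05 and 15.64 in Negative (-2.34 ± 0.32; limma, adjusted p = 0.00863). Trp53bp2, a p53-binding protein at epithelial junctions, was at 10.98 in each Axin2 library, against 14.02 and 14.36 in Negative (-3.21 ± 0.38; 0.00698). Neat1, the long noncoding RNA that builds nuclear paraspeckles, was at 12.83 and 12.56 in Axin2, against 14.96 and 14.42 in Negative (-2.0 ± 0.28; 0.00863). In all 3 the gap between the groups was wider than the gap within either.

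Further lower genes stand in no list. Spock2, a testican proteoglycan, was at 12.63 and 13.01 in Axin2, against 16.22 and 15.50 in Negative (-3.04 ± 0.49; limma, adjusted p = 0.0184). The raft proteolipid Mal was at 2.65 and 1.75 in Axin2, against 11.25 and 10.70 in Negative (-8.78 ± 1.67; 0.0366), and the ubiquitin ligase Sh3rf3 at 1.55 and 3.69 in Axin2, against 10.53 and 11.24 in Negative (-8.26 ± 1.35; 0.0187). In these 2 genes an Axin2 library was at its lowest value, as it was in Alas2, Shtn1 (-8.67 ± 1.82; 0.0492) and the cyclic nucleotide exporter Abcc4 (-7.29 ± 1.48; 0.0452). A730049H05Rik had both Axin2 libraries at their lowest value, against 7.95 and 6.78 in Negative, and is given without a fold. When values under 6 were raised to 6, Alas2, Mal, Sh3rf3 and Shtn1 passed and Abcc4 and A730049H05Rik did not. None of these 6 passed without Axin2 1, Axin2 2 or Negative 2. The GTPase-activating protein Srgap1 (-5.14 ± 1.0; 0.0396), Fsd1l (-5.48 ± 1.15; 0.0492) and the transporter Slc22a23 (-3.77 ± 0.77; 0.0452) were lower with no library at the lowest value. Fsd1l passed in none of the 10 fits without 1 library, and the adjusted p of Srgap1, Slc22a23 and Spock2 reached 0.26, 0.323 and 0.158 over these fits.

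**Figure D3:**
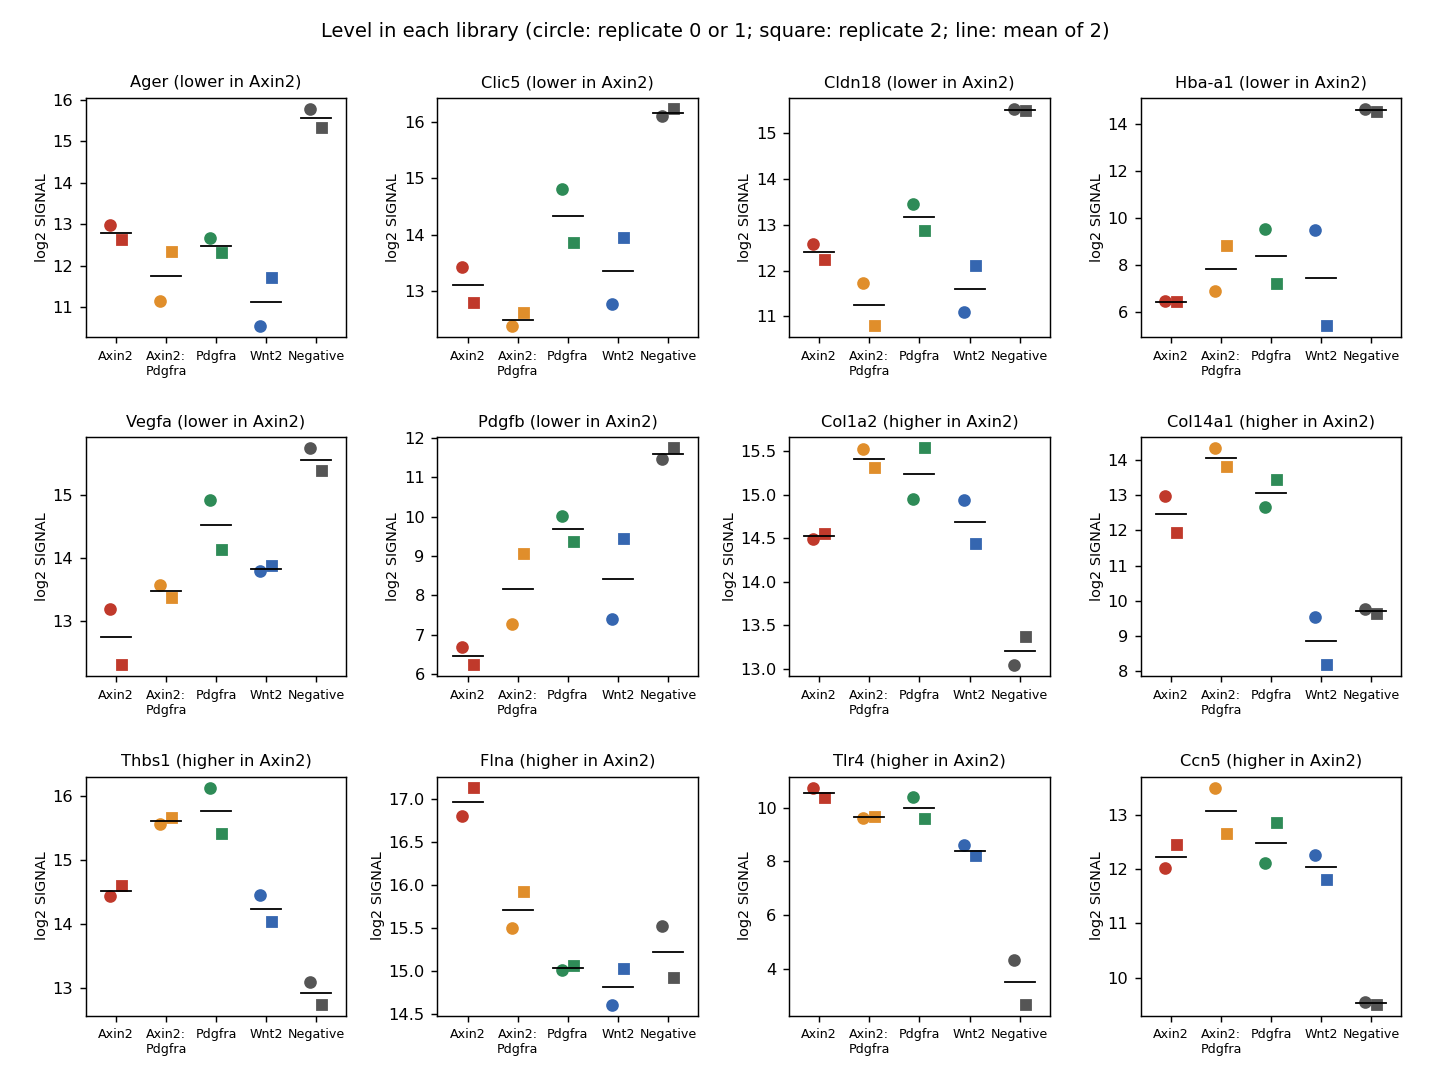
Log2 SIGNAL (vertical axes) of 12 of the genes called in Axin2 against Negative cells, by group (horizontal axes), with a point for each library and a line for the mean of the 2 libraries of a group. In each panel the Axin2 points lie wholly below or wholly above the Negative points; for Col1a2, Col14a1, Thbs1 and Ccn5 the Axin2:Pdgfra mean is above the Axin2 mean.

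Several matrix genes were higher. Of 19 fibrillar collagen and collagen processing genes 3 were higher and 0 lower, and the median was 0.85. In these directions 11 and 3 did not overlap, against 21.9% and 20.6% of all genes. Col1a2, a chain of collagen I, was at 14.49 and 14.55 in Axin2, against 13.04 and 13.37 in Negative (1.31 ± 0.27; limma, adjusted p = 0.0488). Its call ended in each of the 10 fits without 1 library. Col5a1, which sets the width of collagen fibrils, was at 13.43 and 14.05 in Axin2, against 12.24 and 11.12 in Negative (2.06 ± 0.40; 0.0432). Col6a2, a chain of the collagen VI microfibrils around cells, was at 14.82 and 15.21 in Axin2, against 13.48 and 13.63 in Negative (1.46 ± 0.28; 0.0396). In each of these 3 genes both Axin2 libraries were above both Negative libraries. The Axin2:Pdgfra mean was above the Axin2 mean for Col1a2 (15.41 against 14.52), Col5a1 (13.95 against 13.74) and Col6a2 (15.34 against 15.01). The collagen list averaged 11.81 and 11.86 in Axin2, 11.78 and 11.04 in Negative, and 10.97 to 12.83 in the libraries of the other groups. Col3a1 (1.31 ± 0.38; 0.126) and Col6a3 (1.08 ± 0.31) did not pass. The calls of the list ended without Axin2 1 (lowest adjusted p 0.0788), Axin2 2 (0.301) or Negative 2 (0.087), and without Negative 0 Col5a1, Col6a2 and Col6a3 passed.

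Other matrix genes were higher by 0.91 to 2.76. Col14a1, a fibril-associated collagen used as a marker of adventitial fibroblasts, was at 12.99 and 11.92 in Axin2, against 9.76 and 9.63 in Negative (2.76 ± 0.56; limma, adjusted p = 0.0452). Fbln1, an elastic fibre and basement membrane glycoprotein, was at 12.32 and 12.39 in Axin2, against 10.43 and 10.62 in Negative (1.83 ± 0.36; 0.0437). Bgn, the small proteoglycan biglycan, was at 17.32 and 17.47 in Axin2, against 16.68 and 16.28 in Negative (0.91 ± 0.18; 0.0437), the smallest difference called. For all 3 the lower Axin2 library was above the higher Negative library. Ecm1 differed by 1.76 ± 0.29 (0.019), the collagen-binding receptor Antxr1 by 1.56 ± 0.26 (0.019) and the integrin chain Itga8, a marker of alveolar fibroblasts, by 1.43 ± 0.26 (0.0271). Pappa, the protease that frees insulin-like growth factors from their binding proteins, was at 8.96 and 9.90 in Axin2, against 4.86 and 2.67 in Negative (5.67 ± 1.14; 0.045). Of the 12 matrix and adhesion genes called (Col1a2, Col6a2, Col5a1, Col14a1, Fbln1, Bgn, Ecm1, Thbs1, Lama4, Antxr1, Itga8 and Ccn5), put together after their values were seen, 0 passed without Axin2 1 (lowest adjusted p 0.0646) or Axin2 2 (0.158), 11 without Negative 0 and only Antxr1 without Negative 2. In the fit of the 4 libraries alone 0 of the 12 passed (limma, lowest adjusted p 0.0695). These 12 were taken from the higher genes only. The basement membrane chains Lama3 and Col4a3, the proteoglycan Spock2 and the adhesion receptor Icam1 were called lower.

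In the fibroblast and elastic fibre lists few genes were called. Over all genes, 21.9% were higher and 20.6% lower in Axin2 without overlap. Of 19 adventitial fibroblast genes 2 were higher (Col14a1 and C3), 13 did not overlap in that direction and the median was 0.95. This list averaged 11.21 and 10.87 in Axin2, against 9.65 and 10 in Negative. It averaged 12.2 to 13.44 in the Axin2:Pdgfra and Pdgfra libraries, and 9.64 and 9.15 in Wnt2. Of 19 elastic fibre and matricellular genes 1 was higher, 11 did not overlap and the median was 1.01. Of 19 alveolar fibroblast genes 1 was higher, 4 did not overlap in that direction and 5 in the other, and the median was 0.33. Of their members with the highest mean level, the actin-severing protein Gsn (0.88), the small proteoglycan Ogn (0.91), the glycoprotein Mfap4 (0.68), Sparc (0.05) and the integrin ligand Npnt (0.11), did not pass. The direction of the Sparc and Fn1 differences (0.05 and 0.03) turned with other settings.

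The complement components C3 and C4b were higher in Axin2. C3, the central component, was at 16.22 and 15.80 in Axin2, against 14.62 and 14.95 in Negative (1.22 ± 0.22; limma, adjusted p = 0.0271). C4b, the component that starts the C3 convertase of the classical and lectin routes, was at 13.70 and 13.41 in Axin2, against 11.49 and 11.88 in Negative (1.87 ± 0.33; 0.0252). The libraries of the groups did not overlap for either component. These 2 genes were grouped after their values were seen. Both calls held without Negative 0 and were lost without Axin2 1 (lowest adjusted p 0.145), Axin2 2 (0.158) or Negative 2 (0.0586). C3 was also lost without Pdgfra 1 (0.0619) or Pdgfra 2 (0.0664). Both held with the second barcode index in the fit, and both were lost with the replicate block (0.0636 for C3 and 0.0575 for C4b), with the 4 libraries alone (0.0802 and 0.0926) and with Y-linked transcripts as a term (0.0634 each).

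Genes of mural cells had positive differences in nearly every member, and none passed on its own. Of 20 pericyte genes 19 were higher without overlap and 0 were called (limma; 11 higher at unadjusted p under 0.05, as were 7.6% of all genes), with a median of 1.48. All 20 had a positive difference, as did 52.8% of all genes. Of 20 smooth muscle contractile genes 18 were higher without overlap and 0 were called (14 higher at unadjusted p under 0.05), with a median of 2.45. Over all genes 21.9% were higher without overlap. Acta2, the actin of smooth muscle and myofibroblasts, was at 16.28 and 16.25 in Axin2, against 14.35 and 12.09 in Negative (3.04 ± 0.66; adjusted p = 0.0551). Pdgfrb, the receptor that marks pericytes, was at 16.32 and 16.94 in Axin2, against 15.49 and 15.02 in Negative (1.38 ± 0.31; 0.0627). In both genes both Axin2 libraries were above both Negative libraries, and Negative 2 was the lowest. The calcium-dependent kinase Mylk (0.69 ± 0.21; 0.148), the actin-binding protein Cald1 (0.52 ± 0.26) and the guanylate cyclase subunit Gucy1a1 (1.07 ± 0.39; 0.225) differed less.

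These differences also depended on which Negative library was used. The median of the pericyte list was 0.72 against Negative 0 and 2.15 against Negative 2, and that of the smooth muscle list 1.5 and 3.06. The pericyte list averaged 13.86 and 14.1 in Axin2, against 13.01 and 11.73 in Negative, and 8.64 to 10.54 in the other 6 libraries. The smooth muscle list averaged 12.89 and 13.05 in Axin2, against 11.49 and 9.97 in Negative, and 8.11 to 10.47 elsewhere. So pericyte RNA was abundant in Negative cells too, above each library of the Pdgfra, Axin2:Pdgfra and Wnt2 groups. Without Negative 0, 7 pericyte genes and 4 smooth muscle genes were called higher (Acta2, Des, Myh11 and Myl9 in the smooth muscle list). In the fit of the 4 libraries alone 6 smooth muscle genes were called higher (Acta2, Actc1, Actg2, Cnn1, Myl9 and Tagln) and 1 pericyte gene (Pdgfrb). That fit called 12 of the 14177 genes higher. Without Axin2 1, Axin2 2 or Negative 2 none of the 2 lists was called (limma), the lowest adjusted p being 0.109.

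Flna, the filamin that cross-links actin and ties it to integrins, was at 16.80 and 17.13 in Axin2, against 15.52 and 14.92 in Negative (1.75 ± 0.25; limma, adjusted p = 0.00863). Both Axin2 libraries were well above the nearer Negative library. It was the only one of 20 actin and adhesion genes called, 11 of which were higher and 3 lower without overlap (median 0.58). Its call ended without Axin2 2 (adjusted p = 0.158) or Negative 2 (0.0586). The adhesion protein Tns1 (0.49; 0.203) and the cytoskeletal linker Macf1 (-0.65; 0.103) did not pass. The microtubule protein Map1b was at 13.67 and 13.72 in Axin2, against 11.48 and 10.22 in Negative (2.85 ± 0.52; 0.0271), and the HSP40 chaperone Dnajb4 at 13.29 and 13.79 in Axin2, against 11.51 and 11.37 in Negative (2.10 ± 0.32; 0.0135). The call of Map1b ended without Axin2 1, Axin2 2, Negative 2, Pdgfra 1 or Pdgfra 2 (adjusted p up to 0.248), and that of Dnajb4 without Axin2 2 (0.19) or Negative 2 (0.0586). Of 19 vasoactive receptor and signalling genes 11 were higher and 3 lower without overlap and 0 were called (limma, median 0.99). Pde5a, which degrades cyclic GMP, was at 1.39 and the endothelin receptor Ednra at 0.77. Beside the counts of this list and the actin list, 21.9% of all genes were higher and 20.6% lower without overlap.

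Among the called genes the largest positive difference was that of Tlr4, the receptor for bacterial lipopolysaccharide, which was at 10.75 and 10.35 in Axin2, against 4.32 and 2.67 in Negative (7.06 ± 1.07; limma, adjusted p = 0.0135). It was at 8.2 to 10.41 in the 6 other libraries, so the Negative libraries stood alone at the low end. The call held in 8 of 10 fits without 1 library and ended without Axin2 1 (adjusted p = 0.0733) or Axin2 2 (0.158). Pcdh7, a protocadherin, was at 10.38 and 9.03 in Axin2, against 3.85 and 2.67 in Negative (6.45 ± 1.35; 0.0492), and Dtymk, which makes thymidine diphosphate, at 10.3 and 8.89 in Axin2, against 4.11 and 2.67 in Negative (6.21 ± 1.30; 0.0492). Negative 2 was at its lowest value in these 3 genes and in Pheta2 (6.16 ± 1.04; 0.021), Pappa and the scavenger receptor Ssc5d (5.30 ± 1.08; 0.0452). Ssc5d was at 9.9 and 10.66 in Axin2, against 7.3 and 2.67 in Negative, so its Negative libraries lay far apart. When values under 6 were raised to 6, Tlr4, Pheta2 and Ssc5d passed and Pcdh7, Dtymk and Pappa did not. The small GTPase Rab13 was at 10.94 and 10.12 in Axin2, against 4.86 and 5.55 in Negative (5.32 ± 1.03; 0.0396). Spata13, an exchange factor for small GTPases, was at 11.11 and 11.04 in Axin2, against 6.47 and 6.88 in Negative (4.40 ± 0.83; 0.0355). Pomt1, which adds O-mannose to dystroglycan, was at 10.36 and 10.63 in Axin2, against 6.89 and 6.88 in Negative (3.61 ± 0.69; 0.0372). For Spata13 and Pomt1 the libraries of each group were close together. Pi15, a secreted CAP family protein, was at 12.85 and 13.22 in Axin2, against 10.69 and 6.97 in Negative (4.21 ± 0.84; 0.0437), with the Negative libraries far apart. Rab13, Spata13, Pomt1 and Pi15 passed in 3 of the 10 fits without 1 library each, with adjusted p up to 0.236, 0.248, 0.273 and 0.292, and Pcdh7 in 1.

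**Figure D4:**
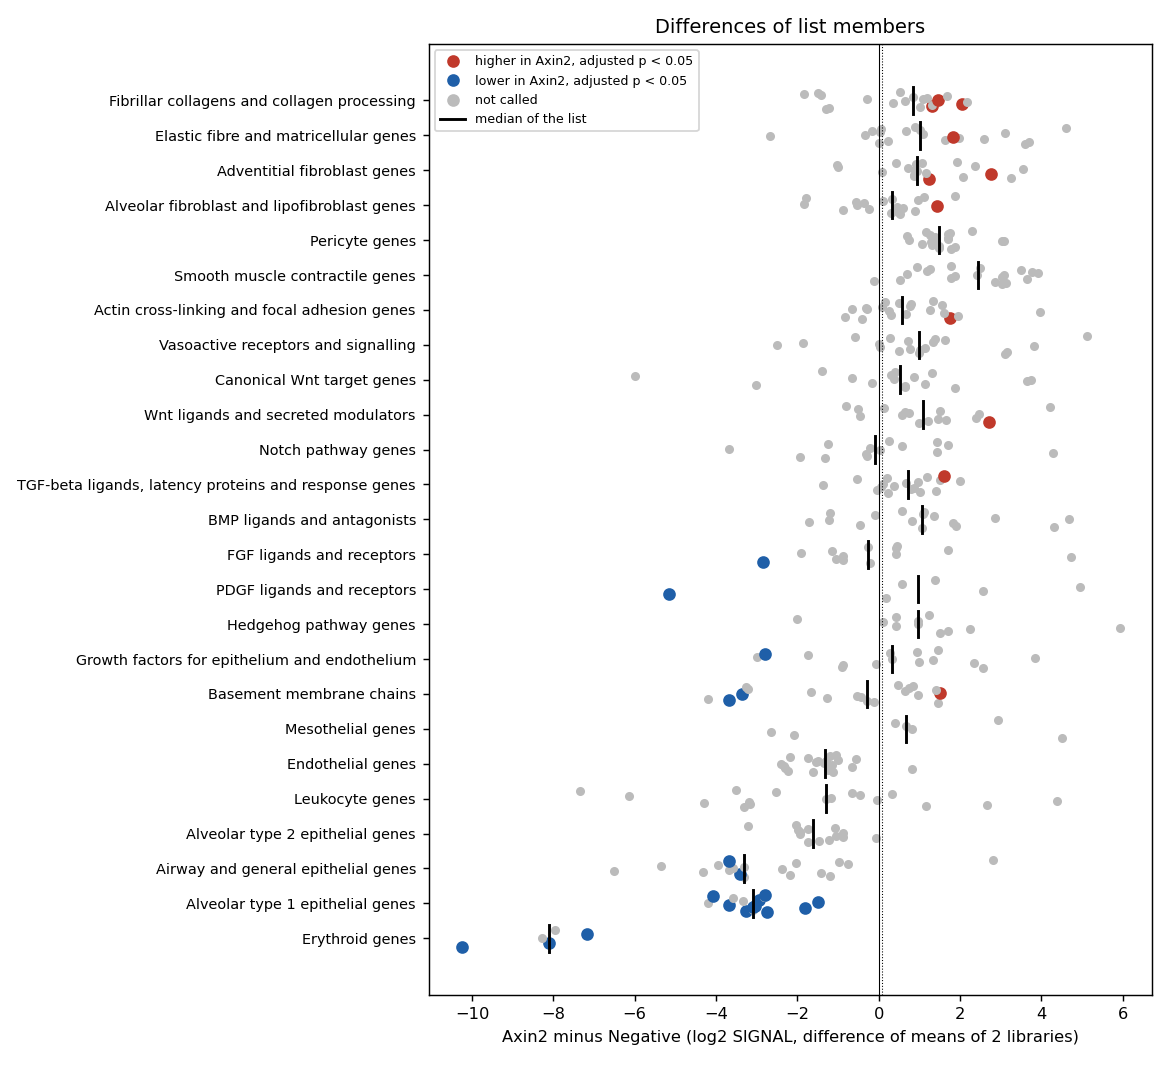
Difference of each tested gene, Axin2 minus Negative (horizontal axis, log2 SIGNAL), for 25 gene lists (vertical axis); coloured points passed an adjusted p of 0.05, bars mark list medians and the dotted line the median of all genes. The AT1 and erythroid points all lie below 0, and all 20 pericyte points lie above 0, none of them called.

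Axin2 itself did not separate the groups. It was at 10.47 and 11.57 in Axin2, against 10.66 and 10.07 in Negative (0.65 ± 0.74; limma, adjusted p = 0.754; 95% interval -0.94 to 2.25), and the groups overlapped. Of 16 canonical Wnt target genes 0 were called (limma, lowest adjusted p 0.0901), with a median of 0.51. Without overlap 4 were higher and 3 lower, as were 21.9% and 20.6% of all genes. Tnfrsf19, a target in the TNF receptor family, was at 13.55 and 13.34 in Axin2, against 12.04 and 12.24 in Negative (1.30 ± 0.53; 0.273). Znrf3, a ubiquitin ligase that removes Wnt receptors, was at 10.59 and 11.59 in Axin2, against 12.45 and 12.51 in Negative (-1.39 ± 0.63; 0.336), so members of this feedback group pointed both ways. Pdgfra was at 13.49 and 13.00 in Axin2, against 12 and 13.34 in Negative (0.58 ± 0.36; 0.51), with overlap.

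Among secreted regulators, Ccn5, a matricellular protein that Wnt signalling can induce, was at 12.02 and 12.44 in Axin2, against 9.55 and 9.5 in Negative (2.71 ± 0.46; limma, adjusted p = 0.021). It was the only one of 16 Wnt ligands and modulators called, and the list median was 1.09. Without overlap 6 were higher and 0 lower, against 21.9% and 20.6% of all genes. Wnt2 was at 9.71 and 10.40 in Axin2, against 8.89 and 9.95 in Negative (0.64 ± 0.90; 0.815), with overlap. Thbs1, the thrombospondin that frees TGF-beta from its latent form, was at 14.44 and 14.59 in Axin2, against 13.09 and 12.73 in Negative (1.61 ± 0.28; 0.0217), 1 of 18 TGF-beta genes called (8 higher and 1 lower without overlap; median 0.73). Enpp2 (autotaxin), which makes lysophosphatidic acid, was at 14.28 and 14.40 in Axin2, against 12.84 and 12.22 in Negative (1.81 ± 0.36; 0.0432). Ccn5, Thbs1 and Enpp2 were higher in both Axin2 libraries than in either Negative library. Ccn5 and Thbs1 passed in 7 of the 10 fits without 1 library and were lost without Axin2 1, Axin2 2 or Negative 2 (adjusted p up to 0.248 each). Enpp2 passed in 3 (up to 0.288).

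In the other pathway lists few or no genes were called. Counts without overlap stand beside shares of 21.9% higher and 20.6% lower over all genes. Of 16 BMP genes 0 were called (limma), 9 were higher and 3 lower without overlap (median 1.07), and Bmp3 was closest (1.89 ± 0.41; 0.0542). Of 11 Hedgehog genes 0 were called, 4 were higher without overlap and 0 lower (median 0.95), with the coreceptor Boc at 1.5 and the receptor Ptch1 at 0.95. Of 14 Notch genes 0 were called (4 higher and 3 lower without overlap; median -0.10), with Heyl, a Notch target of mural cells, at 1.43 (0.165). Of 14 chemokine genes 0 were called (median 0.42), Cxcl1 being closest (2.26 ± 0.50; 0.0627). Of 11 IL6 family genes 0 were called (median 0.09). Of 13 FGF genes only Fgf1 was called (3 higher and 5 lower without overlap; median -0.27). Of 6 PDGF genes only Pdgfb was called, and it was the only one with a negative difference (3 higher and 1 lower without overlap; median 0.98).

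In the fit as reported no listed marker of endothelium, leukocytes, mesothelium or Schwann cells was called. For all genes the shares without overlap were 20.6% lower and 21.9% higher. Of 20 endothelial genes 0 were called (limma; lowest adjusted p 0.0517), 11 were lower and 1 higher without overlap, and the median was -1.32. Cdh5, the cadherin of endothelial junctions, was at 13.39 and 12.99 in Axin2, against 14.08 and 15.53 in Negative (-1.61 ± 0.43; 0.0986). Without Negative 0 5 endothelial genes were called lower, Cdh5, Flt1, Pecam1, Ptprb and Tek. The list averaged 10.87 and 10.19 in Axin2, against 11.28 and 12.55 in Negative. Of 17 leukocyte genes 0 were called, 7 were lower and 1 higher without overlap (median -1.31), and the list averaged 6.95 and 5.26 in Axin2, against 6.90 and 8.68 in Negative. C1qb, S100a9 and Cd79a stood at the floor of each Axin2 library. The macrophage receptor Csf1r was at 10.55 and 8.11 in Axin2, against 13.09 and 11.97 in Negative (-3.20 ± 1.07; 0.18). Among 7 mesothelial genes the median was 0.68, and among 5 Schwann cell genes -0.28, with 0 called in either. Interferon, heat shock, immediate early and cell cycle genes had medians of 0.22, 0.19, 0.12 and 0.54 and 0 calls each, and 12 reference genes a median of 0.21. The part of AT1, red cell, endothelial and leukocyte RNA in the differences of other genes was not tested.

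The same label can be compared within Pdgfra-labelled cells, Axin2:Pdgfra against Pdgfra, with no library shared. There 6 genes (0.0423%) passed (limma). Of the 34 genes higher in Axin2 than in Negative, 27 had a positive difference in this second comparison (50.4% of all genes did), with a median of 0.41 and 0 called. Of the 51 lower genes, 44 had a negative difference, with a median of -0.96, and 2 were called. Those 2 were Neat1, at 13.4 and 13.77 in Axin2:Pdgfra, against 16.58 and 16.14 in Pdgfra (-2.78 ± 0.28; adjusted p = 0.00131), and Akap5, at 9.85 and 9.48 in Axin2:Pdgfra, against 14.13 and 12.23 in Pdgfra (-3.52 ± 0.56; 0.0409). Tspan18 (-3.80 ± 0.65; 0.0558) and Nckap5 (-2.30 ± 0.40; 0.0592), both called lower in Axin2 than in Negative, were just outside. List medians did not all repeat. The pericyte list had a median of -1.22 within Pdgfra-labelled cells, against 1.48 in Axin2 minus Negative, and the vasoactive list -0.61 against 0.99. Smooth muscle genes had 0.13 against 2.45, collagen genes 0.17 against 0.85 and AT1 genes -1.67 against -3.09. Across all 14177 genes the differences of the 2 comparisons had a Pearson's r of 0.161 and a Spearman correlation of 0.165, a description across genes that are not independent.

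The test of the difference between the 2 comparisons called 0 genes (0.0%; limma; 1296 at unadjusted p under 0.05, 9.14%; lowest adjusted p among the 85 genes 0.237). Genes called in Axin2 against Negative contribute that difference to this test, so their share in it is not read further. Of the 34 higher genes, 33 were also above Negative in the Pdgfra group, and in 23 the Axin2:Pdgfra mean exceeded the Axin2 mean. Negative libraries are shared in the first of these counts and Axin2 libraries in the second.

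**Figure D5:**
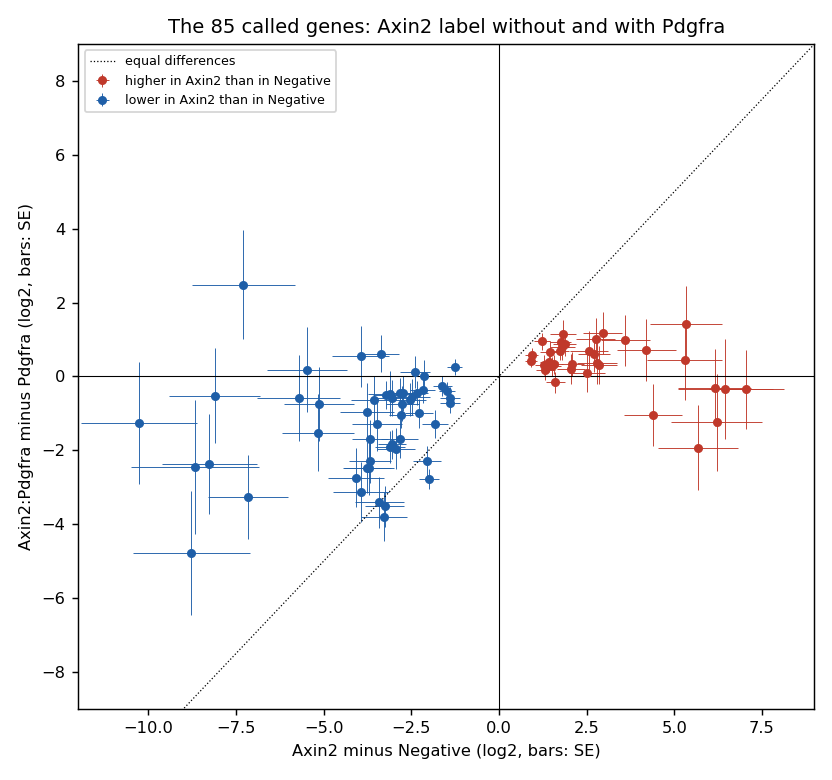
Difference of the 85 called genes in Axin2 minus Negative (horizontal axis) and in Axin2:Pdgfra minus Pdgfra (vertical axis), in log2 SIGNAL with SE bars; the dotted line marks equal differences. Most points lie on the same side of 0 in both, 27 of 34 for the higher and 44 of 51 for the lower genes, and nearer to 0 on the vertical axis.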

How the data were processed

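RNA was sequenced from sorted cells in 10 libraries, 2 for each of 5 groups taken from the labels. STAR, limma and the build mm9 are named in the submitters' processing notes. Tool versions, read counter, annotation and the role of limma were not given in the sources used here. Each gene has 1 deposited value per library, SIGNAL, on a log2 scale. That scale was inferred from the values, which share a maximum of 19.25 and medians of 9.1 to 9.11, as equalized distributions do. The tables hold no counts, so no counting interval could be computed.

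Genes at 6 or more in at least 2 libraries were kept, and 14720 of 14854 identifiers had a symbol. All 10 libraries entered a linear model with a mean per group (5 residual degrees of freedom) in limma 3.58.1 under R 4.3.3 (eBayes with both trend and robust settings). Tests were two-sided, and p-values were adjusted by Benjamini-Hochberg over all genes, with a threshold of 0.05. Tables and figures were made with Python 3.11.15, pandas 2.3.3, numpy 2.4.6, scipy 1.17.1 and matplotlib 3.10.9. The script was tested on simulated data. Standard errors are those of the model, which pools the spread of a gene over the 5 groups. The median absolute difference between replicates was 1.12 in Negative, 0.99 in Axin2:Pdgfra, 0.89 in Pdgfra, 0.84 in Axin2 and 0.55 in Wnt2. The errors can therefore understate the spread within Negative.

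Genes given with values were the 15 largest positive and negative differences called, every called list member, the 3 members of each list with the highest mean, and Axin2, Pdgfra, Pdgfrb, Acta2 and Wnt2. Other called genes were added after their values were seen. The groups compared, the 34 gene lists and the motif were chosen with earlier results of these data known. Alternatives left out each library, changed the libraries fitted, the filter, the floor, the scaling and the moderation, or added a block or term. Promoters are from RefSeq (GRCm38.p6), and 59 of the 85 called genes matched a promoter.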

Additional observations from a re-analysis of the deposited data

How the results depend on the processing

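With 2 libraries in each group, the number of genes called in Axin2 against Negative cells (85, 34 higher and 51 lower) was set by single libraries and by the model, and the causes were not tested. Over the fits that left out 1 library it ran from 0 to 585 (0 to 448 higher, 0 to 137 lower). Without the Wnt2 group it was 50 (18 and 32), with the second barcode index as a term 26 (6 and 20) and with the presence of Y-linked transcripts as a term 12 (5 and 7). That last term separates Negative 2 from the other 3 libraries and leaves the comparison to Negative 0 alone. The median difference of all genes was 0.0569 with this term and also without Negative 2. Plain eBayes gave 0 (0 and 0; 1692 at unadjusted p under 0.05). A fit of the 4 libraries alone gave 78, of which 12 were higher. The remaining settings gave 77 without a filter on low values, 110 with at least 8 in 2 of the 4 libraries, 108 and 110 with values under 4 or 6 raised to 4 or 6, and 85 with centred libraries. The share of higher genes among the calls was 40% as reported, 76.6% without Negative 0, 75.8% with the replicate block and 15.4% with the 4 libraries alone. Count-based tests were not run, since the tables hold no counts. The unknown depth limits low genes most.

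With the replicate number of the labels as a block, 396 genes were called (300 higher and 96 lower), 59 of them among the 85. The Axin2 and Negative groups share only the number 2. No other library has the number 0, so the block fits Negative 0 by itself and leaves the Negative side to Negative 2. The block is therefore close to leaving out Negative 0 and is no separate check. Deviations from the group means correlated by -0.0606 to 0.0279 between same-numbered libraries of the other pairs of groups, so the numbers gave no sign of pairing.

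The direction of these uncalled genes turned. With Y-linked transcripts as a term, B2m was at 0.0874, Cxcl12 at 0.70, Hspa8 at -0.0895, Itpr1 at -0.60, Mcm5 at -1.34, Mki67 at -0.45, Notch2 at -0.13, Pcna at 0.33, Pdgfa at -0.36, Upk1b at -0.0908 and Zfp36 at 0.0543. With the replicate block, Fn1 was at -0.29, Pdgfra at -0.0585, Smo at -0.73, Sox10 at 0.29, Sparc at -0.0152, Stat3 at -0.12, Tgfbr2 at -0.11 and Wnt5a at -0.037. With the second index, Cxcl12 was at 0.0789, Fn1 at -0.0035, Itpr1 at -0.0814, Mki67 at -0.36, Pcna at 0.0332 and Sparc at -0.0072, and with centred libraries Fn1 was at -0.0514, Itpr1 at -0.0453 and Sparc at -0.0367. Over the fits that left out 1 library, the range was -0.33 to 0.25 for B2m, -0.74 to 0.70 for Cxcl12, -0.0503 to 0.89 for Fgfr1, -0.32 to 0.39 for Fn1, -0.0895 to 0.30 for Hspa8, -0.60 to 0.69 for Itpr1, -1.34 to 7.52 for Mcm5, -0.45 to 1.25 for Mki67, -0.13 to 1.30 for Notch2 and -0.66 to 0.33 for Pcna. It was -0.36 to 0.73 for Pdgfa, -0.0932 to 1.24 for Pdgfra, -0.69 to 1.53 for Smo, -0.75 to 0.18 for Sox10, -0.13 to 0.23 for Sparc, -0.14 to 0.32 for Stat3, -0.24 to 0.67 for Tgfbr2, -0.24 to 1.05 for Upk1b and -0.30 to 0.16 for Zfp36.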
